A study of Mus musculus with 9 samples.

Results

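A set of 37 genes of the NRF2, glutathione, thioredoxin and peroxiredoxin systems were followed across 9 RNA sequencing libraries of mouse embryonic fibroblasts. The genes were chosen by name, with earlier results of these data known, so their shares set beside those of all genes are descriptive only. Each symbol matched 1 of the 52661 gene rows, so 37 of 52661 rows were described. All 37 cleared the low-count filter and stood among the 18408 genes tested. The cells were C57BL/6 embryonic fibroblasts immortalised with T/t antigen, kept in a medium with modified N2, EGF and FGF-2, and they formed 3 groups of 3 libraries each. Wild-type cells carried an intact Ctr1. Ctr1-null cells had the genotype Ctr1 -/-, and their sample titles call them FloxedCtr1. The third group was Ctr1-null cells given 500 µM bathocuproine disulfonic acid (BCS), a copper chelator, for 48 hours. The design text gives that dose in mM, and the sample labels' µM is used here. The labels name neither the recombinase nor the number of clones, and no wild-type cells received BCS, so the chelator's effect was measured in Ctr1-null cells only. They also do not say whether the 3 libraries of a group came from separate cultures, and p-values then measure only the spread between these libraries, which may be technical.

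Ctr1, encoded by Slc31a1, is the main copper importer of mammalian cells, and the study asked how expression changes when copper entry is lost and when remaining copper is chelated. NRF2, the product of Nfe2l2, is a transcription factor that KEAP1 holds in the cytoplasm and passes to degradation until oxidants or electrophiles modify KEAP1. NRF2 then enters the nucleus, pairs with a small MAF protein and binds antioxidant response elements at genes for glutathione synthesis, quinone reduction, thioredoxin reduction and NADPH supply. Glutathione and thioredoxin are the main thiol reductants of the cell: glutathione peroxidases and peroxiredoxins use them to remove peroxides, and glutathione transferases couple glutathione to reactive compounds. NRF2 is controlled mainly through the stability of its protein, which RNA libraries do not measure.

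The core of the antioxidant response element, TGACNNNGC on either strand (GCNNNGTCA when read on the other strand), was searched in the RefSeq promoter windows of build GRCm38.p6, which run from 250 bases before to 50 bases after each gene start. Windows were found for 31 of the 37 genes, and Hmox1, Gclc, Gsr, Prdx6, Gsta4 and Abcc1 had no entry. The core was present for 9 of the 31 genes (29.0%), and for 14.0% of all 27025 genes in the same table. The 9 genes were Nfe2l2, Gclm, Txnrd1, Srxn1, Prdx1, Gstm5, Mgst1, G6pdx and Pgd. A match is a run of letters and not a measured binding site. The windows around 3 of the matches are shown because they belong to 1 gene each of glutathione synthesis, thioredoxin reduction and the peroxiredoxins and overlap no annotated exon. Each lies on the plus strand, which is also the strand of its gene, and the capitals mark the core, here read on the minus strand, at chr3:122245397-122245457, chr10:82859088-82859148 and chr4:116685440-116685500.
Gclm: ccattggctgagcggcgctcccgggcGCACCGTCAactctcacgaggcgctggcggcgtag
Txnrd1: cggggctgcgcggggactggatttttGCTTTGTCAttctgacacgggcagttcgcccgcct
Prdx1: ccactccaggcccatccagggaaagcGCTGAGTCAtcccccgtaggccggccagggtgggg
The core begins 134 bases before the RefSeq start used for Gclm, 92 bases before that for Txnrd1 and 133 bases before that for Prdx1. The start used for Txnrd1, chr10:82859206, lies within the annotated gene, which spans chr10:82833951-82897712. Its window is therefore inside the gene and not before its first base. With all libraries none of these 3 genes passed the test described next in any comparison, and G6pdx was the only called gene among the 9 with the core.

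The libraries held 38962036 to 57206337 counts, so a gene with 0 counts could lie at up to 0.0546 to 0.0811 CPM (counts scaled by library size and composition), a limit that covers counting error only. Slc31a1 lay at 54.8 to 56.1 CPM in wild-type libraries, 1.40 to 3.88 CPM in Ctr1-null libraries and 1.69 to 3.24 CPM in treated libraries, so the labels and the targeted gene agreed in all 9. Among 10 fibroblast markers the summed level was 16099.8 to 18094.5 CPM in wild type, 15078.9 to 18120.9 CPM in Ctr1-null and 16009.3 to 19416.0 CPM in treated libraries, while Thy1 and Lum stayed under 1 CPM in every library. Most of that sum was Fn1 and Vim, and single markers were less even. From replicate 1 to replicate 3, Pdgfra read 65.3, 6.11 and 6.62 in wild-type and 41.2, 36.2 and 95 in Ctr1-null libraries. In treated libraries it read 38.6, 42.7 and 46.5 CPM. Dcn read 2.31, 0.0541 and 0.0372 CPM in wild-type libraries. Wild-type replicate 1 stood apart from the other wild-type libraries. It lay outside both of them for 36 of the 37 genes (97.3%), against 86.0% of all genes tested. Its median absolute log2 distance from their mean was 0.33 over the 37 genes and 0.22 over all genes, whereas the other 2 wild-type libraries differed by a median of 0.04 and 0.08. Results are therefore given with and without this library where they rest on it. Leaving it out leaves 2 wild-type libraries. It was singled out from these same data, and removing it narrows the spread within wild type. Calls made without it are therefore descriptive only, and a gain in calls is partly built in.

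Per kilobase of merged exon, the wild-type levels ran from 260.7 ± 30.8 CPM per kb (SD, n = 3) for Txn1, thioredoxin itself, down to 0.60 ± 0.35 CPM per kb for Gpx3, a secreted glutathione peroxidase. Prdx1 at 151.4 ± 14.7, Gpx4 at 147.9 ± 24.4, Hmox1 at 114.3 ± 9.83 and Gstp1 at 101.9 ± 13.3 CPM per kb followed Txn1. Prdx1 and Gpx4 did not differ beyond their spread. At the low end stood Sod2 at 4.16 ± 0.54, Gstt1 at 2.98 ± 1.26, Mgst1 at 2.79 ± 3.17 and Gsta4 at 1.34 ± 0.74 CPM per kb. Gstt1 and Mgst1 did not differ beyond their spread either. The 4 lowest genes in wild type, Gstt1, Mgst1, Gsta4 and Gpx3, were also those with the 4 highest log2 fold changes in treated against wild-type cells. The wild-type level is the denominator of that fold change, so the match is partly built in.

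**Figure D1:**
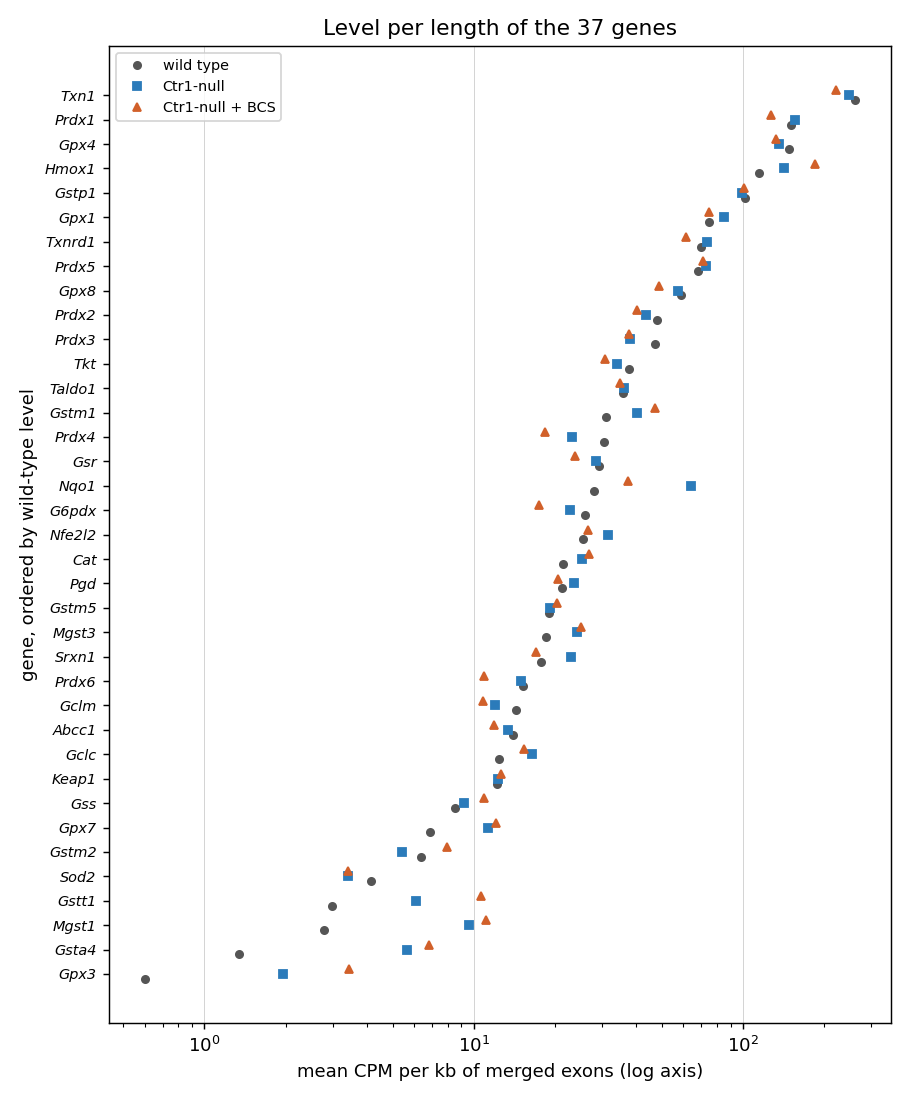
Mean CPM per kilobase of merged exons on a log axis for each of the 37 genes, ordered by wild-type level, with 1 symbol per group (mean of 3 libraries). The groups lie close together for abundant genes such as Txn1 and Gstp1 and spread apart for Gstt1, Mgst1, Gsta4 and Gpx3.

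In Ctr1-null against wild-type cells, 0 of the 37 genes passed an adjusted p of 0.05 in edgeR's quasi-likelihood test, where 0.0109% of all genes tested did. At an unadjusted p under 0.05 there were 13 genes (35.1%), 11 higher and 2 lower, against 17.6% of all genes. Of the 18408 genes tested, 1671 were higher and 1568 lower at that threshold. DESeq2 called 3 genes, Nqo1, Gsta4 and Gpx3, all higher, where it called 7.48% of the genes it gave an adjusted p, and limma-voom called 0. The libraries of the 2 groups did not overlap for 8 genes (21.6%, against 18.1% of all genes), 7 higher (9.49% of all genes) and 1 lower (8.62%). Nqo1, Gsta4, Mgst1, Gstm1, Gpx1, Prdx5 and Cat lay higher in every Ctr1-null library and Sod2 lay lower. The median log2 fold change was 0.05 over the 37 genes and 0.01 over all genes. Without wild-type replicate 1, with 2 wild-type libraries left, the test called 11 of 37 genes (29.7%), against 17.3% of all genes. Nfe2l2, Nqo1, Gclc, Gsta4, Mgst1, Gpx3 and Gpx7 were higher, where 9.22% of all genes were, and Prdx2, Prdx3, Prdx4 and Sod2 were lower, where 8.05% of all genes were.

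Adding BCS to Ctr1-null cells gave 0 of 37 called genes in edgeR's test, where 0.0543% of all genes passed. At an unadjusted p under 0.05 there were 10 genes (27.0%), 1 higher and 9 lower, against 14.7% of all genes. Of the 18408 genes tested, 1536 were higher and 1172 lower at that threshold. DESeq2 called 1 gene, Prdx6, which was lower, where it called 5.04% of the genes it gave an adjusted p, and limma-voom called 0. The libraries did not overlap for 10 genes (27.0%, against 24.3% of all genes). Gss was higher in every treated library (13.4% of all genes), and Prdx6, G6pdx, Prdx4, Prdx1, Gsr, Nfe2l2, Abcc1, Txn1 and Tkt were lower (10.9% of all genes). The median log2 fold change was -0.06, against 0.00 over all genes. Without Ctr1-null replicate 1 it was -0.02, again against 0.00. Leaving out wild-type replicate 1, which also enters the shared estimate of the spread, left 0 of 37 genes called, against 0.972% of all genes.

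Between treated Ctr1-null and wild-type cells, which differ in genotype and in treatment at once, 9 of 37 genes (24.3%) passed, against 15.8% of all genes tested. The 6 that rose were Gpx3, Gsta4, Gstt1, Gstm1, Gss and Cat, where 8.56% of all genes rose. The 3 that fell were Prdx4, G6pdx and Prdx6, where 7.28% of all genes fell. The called changes ran from a log2 fold change of 2.51 for Gpx3 to -0.72 for Prdx4, and the median over the 37 genes was -0.01, against 0.01 over all genes. The libraries did not overlap for 17 genes (45.9%, against 37.1% of all genes), 9 higher (20.0% of all genes) and 8 lower (17.1%). An unadjusted p under 0.05 was reached by 20 genes (54.1%), against 32.9% of all genes. Without wild-type replicate 1 the count was 20 of 37 (54.1%), with 8 higher, where 15.7% of all genes were, and 12 lower, where 15.3% were. It held 8 of the 9 genes and lost Cat. Leaving out the second or the third wild-type library, or treated replicate 3, gave 2 genes in each case, where 3.41%, 3.01% and 3.41% of all genes passed, and leaving out treated replicate 1 gave 3, where 4.24% passed. Prdx4 and Gsta4 were the only genes of the 9 that passed under each of the 9 left-out libraries. The 3 comparisons share their libraries, so they are not independent of one another.

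**Figure D2:**
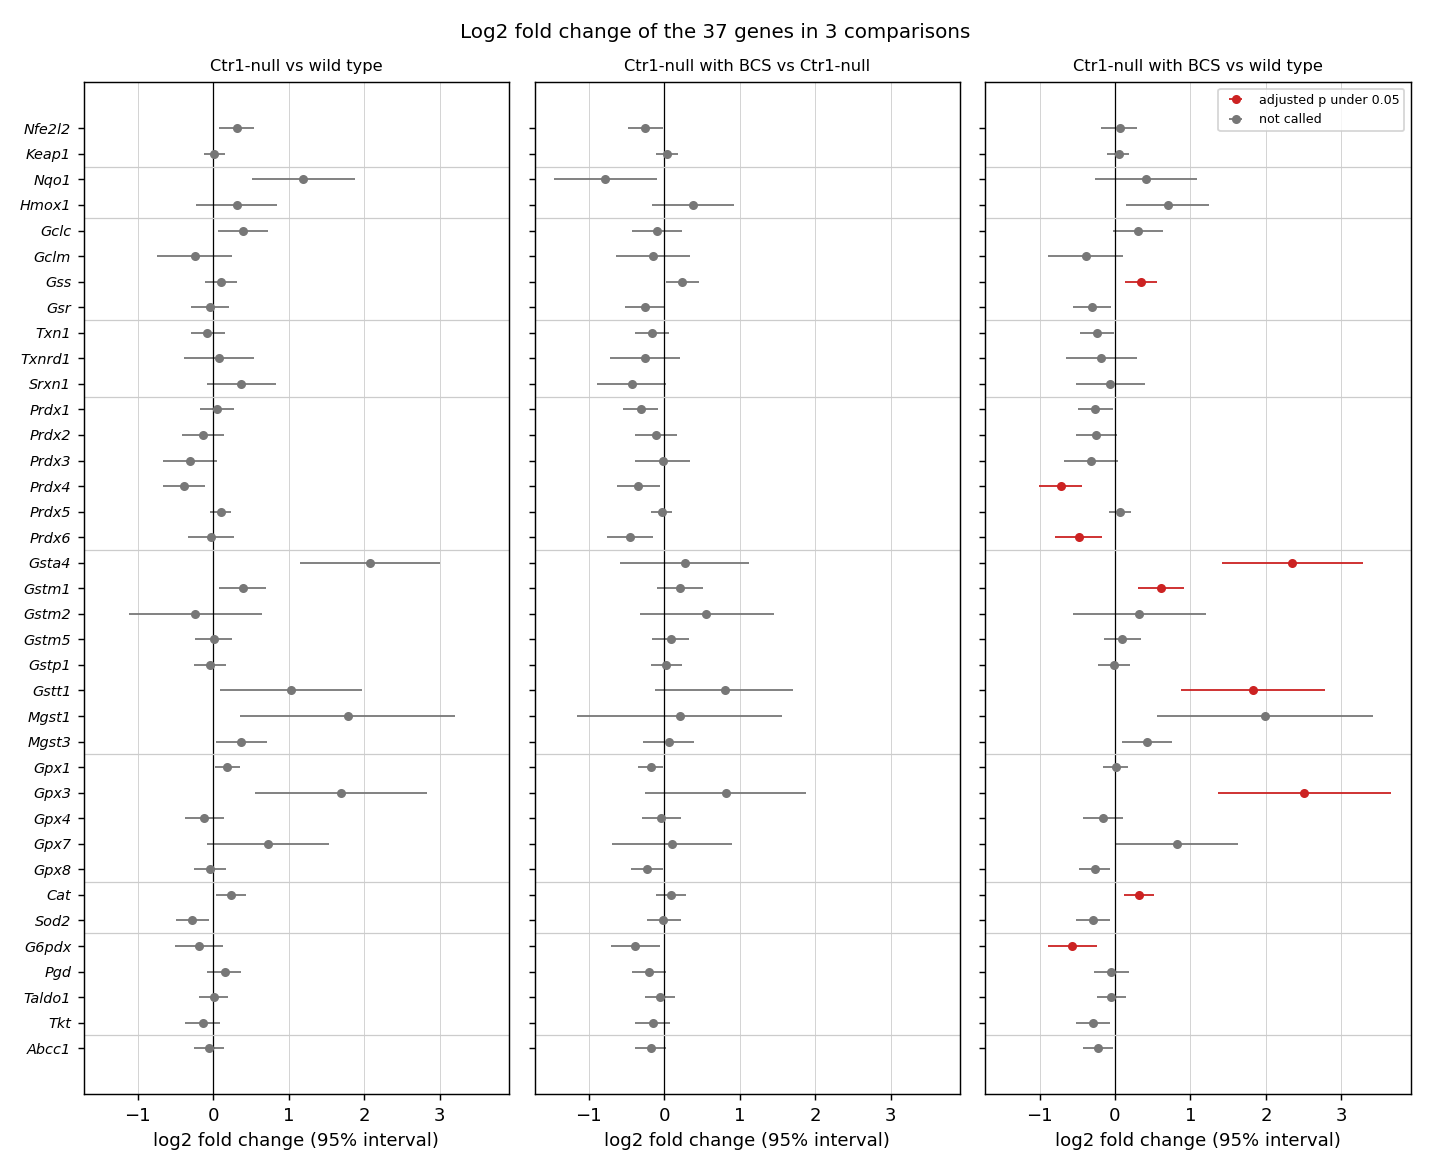
Log2 fold change with its 95% interval for each of the 37 genes, grouped by role, in the 3 comparisons on 1 common axis; red points passed an adjusted p of 0.05. No point is red in the first and second panels, and the third has 6 red points above 0 and 3 below it.

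Nfe2l2 and Keap1 encode the regulator and its adaptor, and neither passed the test in a comparison. Nfe2l2 lay at 112.7, 91.2 and 87.0 in wild-type, 122.1, 111.6 and 126.1 in Ctr1-null and 108.0, 96.0 and 98.5 CPM in treated libraries, each from replicate 1 to replicate 3, an order kept for every gene that follows. The Ctr1-null libraries were the high ones, all above the treated libraries, but Ctr1-null replicate 2 fell just under wild-type replicate 1. Its log2 fold change was 0.31 ± 0.10 (SE; adjusted p = 0.196) in Ctr1-null against wild type and -0.25 ± 0.10 (adjusted p = 0.311) with BCS against without. Without wild-type replicate 1 the first value was 0.43 ± 0.08 (adjusted p = 0.0106). Keap1 read 54.7, 57.5 and 59.6 CPM, then 58.8, 55.8 and 58.5 CPM, then 59.1, 58.6 and 59.7 CPM. All 9 libraries lay in 1 narrow band and the groups overlapped. The 95% interval of its log2 fold change was -0.13 to 0.15 in Ctr1-null against wild type and -0.11 to 0.18 with BCS against without. Keap1 shares 10.9% of its exon bases with an overlapping gene model, and whether the authors' counting used strand is not given in the sources used here.

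Nqo1, a quinone reductase widely used as a readout of NRF2, stood at 57.9, 35.4 and 37.3 in wild-type, 148.5, 66.8 and 83.6 in Ctr1-null and 72.0, 56.6 and 45.3 CPM in treated libraries. Every Ctr1-null library exceeded every wild-type library, Ctr1-null replicate 1 most of all, and the treated libraries overlapped both other groups. The log2 fold change was 1.19 ± 0.31 (adjusted p = 0.129) in Ctr1-null against wild type, -0.78 ± 0.30 (adjusted p = 0.282) with BCS against without, and 0.41 ± 0.30 (adjusted p = 0.376) in treated against wild type. Leaving out Ctr1-null replicate 1 brought the first to 0.79 ± 0.24 (adjusted p = 0.167) and the second to -0.37 ± 0.24 (adjusted p = 0.645), and leaving out wild-type replicate 1 brought the first to 1.45 ± 0.32 (adjusted p = 0.0162).

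Hmox1, heme oxygenase 1, which breaks down heme, had another order of groups. Its levels were 220.0, 190.2 and 190.2 in wild-type, 351.4, 198.2 and 195.7 in Ctr1-null and 347.8, 387.1 and 237.1 CPM in treated libraries. Ctr1-null replicate 1 sat with the treated libraries and the other 2 Ctr1-null libraries with wild type, while each treated library exceeded each wild-type library. None of its changes passed: the log2 fold change was 0.31 ± 0.24 (adjusted p = 0.517) in Ctr1-null against wild type, 0.38 ± 0.24 (adjusted p = 0.496) with BCS against without and 0.70 ± 0.24 (adjusted p = 0.0792) in treated against wild type. Without Ctr1-null replicate 1 these were -0.02 ± 0.18 (adjusted p = 0.951), 0.72 ± 0.18 (adjusted p = 0.252) and 0.70 ± 0.16 (adjusted p = 0.0224), the last of which passed.

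**Figure D3:**
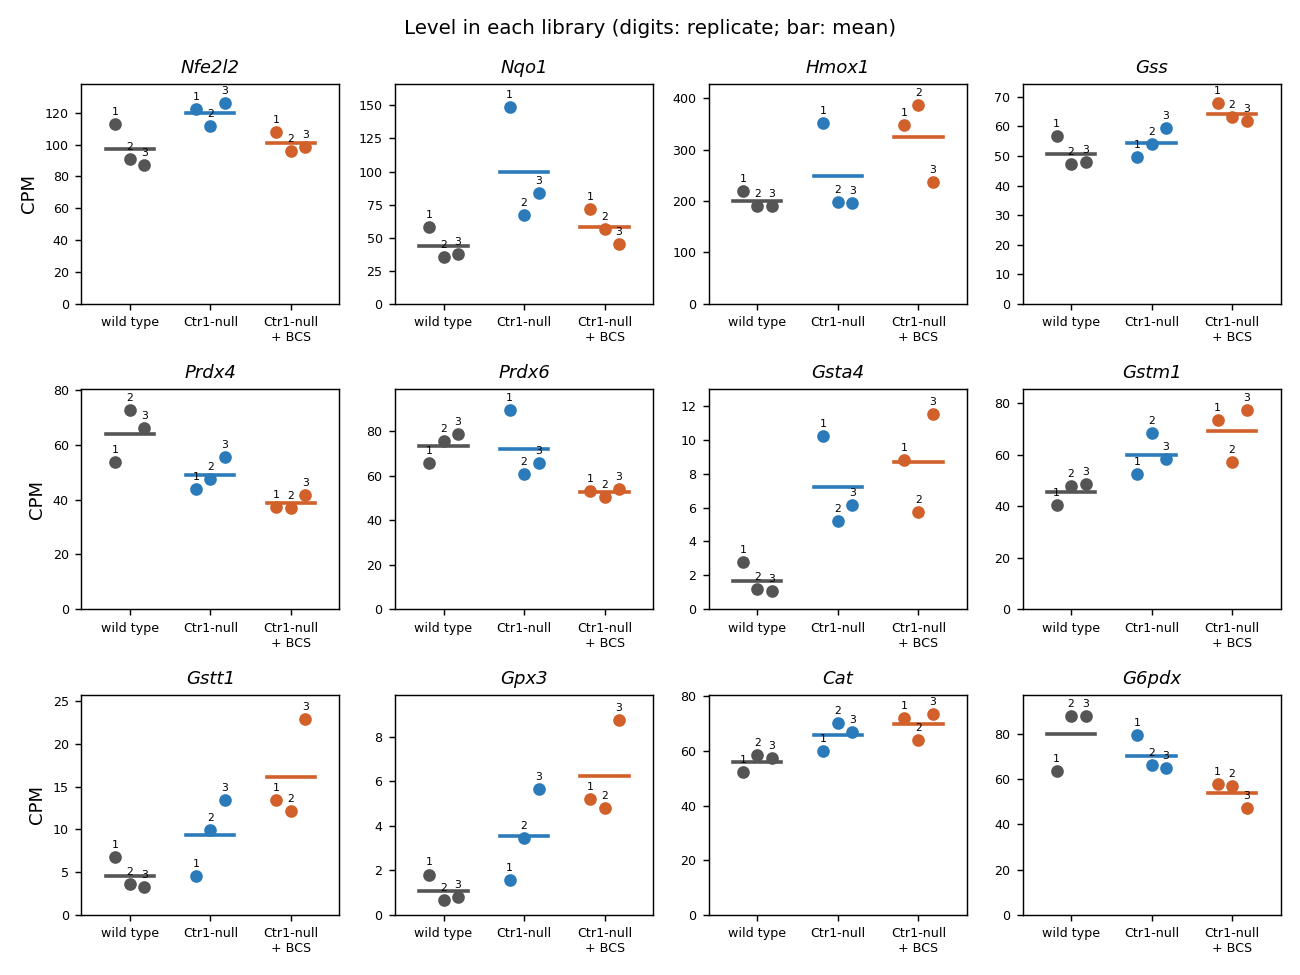
CPM in each library for Nfe2l2, Nqo1, Hmox1 and the 9 genes called between treated and wild-type cells, 1 point per library with its replicate number and a bar at the group mean. Ctr1-null replicate 1 stands highest for Nqo1, and wild-type replicate 1 stands above the other wild-type libraries for Gsta4, Gstt1 and Gpx3.

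Of the 4 genes that make or reduce glutathione, Gss rose in treated against wild-type cells (8.56% of all genes rose), and with all libraries the other 3 passed in no comparison. When wild-type replicate 1 was left out, all 4 passed in treated against wild type. Gss and Gclc were higher, where 15.7% of all genes were, and Gclm and Gsr lower, where 15.3% were. Gss, glutathione synthetase, which performs the last step of synthesis, read 56.7, 47.2 and 47.9 in wild-type, 49.5, 54.1 and 59.6 in Ctr1-null and 67.9, 63.2 and 61.8 CPM in treated libraries. The treated libraries were the 3 highest of all, and the other 2 groups overlapped. The log2 fold change was 0.35 ± 0.10 (adjusted p = 0.0408) in treated against wild type and 0.24 ± 0.10 (adjusted p = 0.295) against Ctr1-null. The call was lost under 6 of the 9 left-out libraries, where the adjusted p reached 0.155, and with the authors' factors. Gss lies at chr2:155563181-155592810 on the minus strand, and 15.4% of its exon bases are shared with Acss2 and antisense transcripts.

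The subunits of glutamate-cysteine ligase, the rate-limiting enzyme of glutathione synthesis, had log2 fold changes of opposite sign in both comparisons against wild type and of the same sign with BCS against without, and none passed with all libraries; the difference between the subunits was not tested. Gclm, the modifier subunit, read 63.1, 102.8 and 103.0 in wild-type, 95.8, 71.4 and 60.1 in Ctr1-null and 71.2, 77.4 and 56.2 CPM in treated libraries. Wild-type replicate 1 lay among the null libraries and far below the other 2 wild-type libraries, so the groups overlapped. Its log2 fold change was -0.39 ± 0.22 (adjusted p = 0.245) in treated against wild type with all libraries and -0.60 ± 0.19 (adjusted p = 0.0376) without wild-type replicate 1. Gclc, the catalytic subunit, ranged from 41.6 to 56.6 CPM in wild type, 52.9 to 68.7 CPM in Ctr1-null and 50.1 to 65.7 CPM in treated libraries, with a log2 fold change of 0.40 ± 0.15 (adjusted p = 0.226) in Ctr1-null and 0.31 ± 0.15 (adjusted p = 0.185) in treated against wild type. Leaving out wild-type replicate 1 made these 0.55 ± 0.14 (adjusted p = 0.0239) and 0.46 ± 0.13 (adjusted p = 0.0304). Gsr, the reductase that regenerates glutathione, had a log2 fold change of -0.30 ± 0.11 (adjusted p = 0.0982) in treated against wild type, with all 3 treated libraries under all 3 wild-type ones, and -0.42 ± 0.10 (adjusted p = 0.0131) without wild-type replicate 1.

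With all libraries the thioredoxin genes gave 0 calls of 3 in each comparison. Without wild-type replicate 1 Txn1 was called lower in treated against wild type, where 15.3% of all genes were. Srxn1, sulfiredoxin, which repairs over-oxidised peroxiredoxins, read 44.5, 53.4 and 52.6 in wild-type, 89.8, 53.4 and 51.1 in Ctr1-null and 53.8, 50 and 40.7 CPM in treated libraries. A single library, Ctr1-null replicate 1, was high, and the remaining 8 lay together. The log2 fold change of 0.37 ± 0.20 (adjusted p = 0.369) in Ctr1-null against wild type was 0.06 ± 0.13 (adjusted p = 0.818) without that library. Txnrd1, cytosolic thioredoxin reductase, showed the same library highest: it ranged from 447.5 to 522.4 CPM in wild type, 388.0 to 708.3 CPM in Ctr1-null and 351.7 to 495.9 CPM in treated libraries. Txn1 had a log2 fold change of -0.08 ± 0.10 in Ctr1-null against wild type and -0.24 ± 0.10 (adjusted p = 0.138) in treated against wild type, the latter -0.34 ± 0.09 (adjusted p = 0.0175) without wild-type replicate 1.

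Among the 6 peroxiredoxins, thiol enzymes that reduce hydrogen peroxide, 2 fell in treated against wild-type cells, where 7.28% of all genes fell, none rose, and the median log2 fold change was -0.29. When wild-type replicate 1 was left out, the 5 other than Prdx5 were called lower, where 15.3% of all genes were. In Ctr1-null against wild type, and with BCS against without, 0 of 6 passed. Prdx4, the peroxiredoxin of the endoplasmic reticulum, read 53.5, 72.5 and 65.9 in wild-type, 44.0, 47.4 and 55.5 in Ctr1-null and 37.4, 36.9 and 41.8 CPM in treated libraries. All treated libraries lay under all others, and of the Ctr1-null libraries only replicate 3 reached the lowest wild-type value. The log2 fold change was -0.72 ± 0.13 (adjusted p = 0.00926) in treated against wild type. It was -0.39 ± 0.12 (adjusted p = 0.176) in Ctr1-null against wild type and -0.34 ± 0.13 (adjusted p = 0.264) with BCS against without, and the former was -0.50 ± 0.11 (adjusted p = 0.0142) without wild-type replicate 1. Its call in treated against wild type held under all 9 left-out libraries, with a largest adjusted p of 0.0450 and log2 fold changes from -0.85 to -0.63. Prdx4 lies at chrX:155323918-155340754 on the minus strand, and no 31-base stretch of its longest transcript occurs in another gene.

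Prdx6, which has a single catalytic cysteine and uses glutathione, read 65.5, 75.5 and 78.5 in wild-type, 89.5, 60.5 and 65.6 in Ctr1-null and 52.9, 50.4 and 54.0 CPM in treated libraries. The treated libraries were the 3 lowest and close to one another, while Ctr1-null replicate 1 was the highest of all 9. The log2 fold change was -0.48 ± 0.14 (adjusted p = 0.0426) in treated against wild type and -0.45 ± 0.14 (adjusted p = 0.195) with BCS against without. Without Ctr1-null replicate 1 the latter was -0.27 ± 0.09 (adjusted p = 0.395). The call was lost under 6 of the 9 left-out libraries, where the adjusted p reached 0.151, and also with scaling by library size only and with the authors' factors.

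Prdx3, the mitochondrial member, read 51.6, 80.0 and 78.2 in wild-type, 64.6, 53.8 and 51.1 in Ctr1-null and 55.8, 60.2 and 51.7 CPM in treated libraries. Wild-type replicate 1 was as low as the lowest null libraries and the other 2 wild-type libraries were the highest, so the groups overlapped through 1 library. The estimated log2 fold change was -0.31 ± 0.16 (adjusted p = 0.348) in Ctr1-null and -0.32 ± 0.16 (adjusted p = 0.195) in treated against wild type. Without wild-type replicate 1 both passed, at -0.49 ± 0.11 (adjusted p = 0.0169) and -0.51 ± 0.11 (adjusted p = 0.00833). In treated against wild type, Prdx1 and Prdx2, the cytosolic members, had log2 fold changes of -0.26 ± 0.10 (adjusted p = 0.110) and -0.25 ± 0.12 (adjusted p = 0.192). Both were called without wild-type replicate 1, Prdx1 at -0.34 ± 0.09 (adjusted p = 0.0237) and Prdx2 at -0.39 ± 0.08 (adjusted p = 0.00801), and Prdx2 was then also called in Ctr1-null against wild type, at -0.28 ± 0.08 (adjusted p = 0.0490). With all libraries Prdx5 had 0.07 ± 0.06 (adjusted p = 0.506), with a 95% interval of -0.08 to 0.21.

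Among the 8 glutathione transferase genes, 3 rose in treated against wild-type cells, namely Gsta4, Gstt1 and Gstm1, where 8.56% of all genes rose, none fell, and the median log2 fold change was 0.52. In the other 2 comparisons 0 of 8 passed. Gsta4, which conjugates the lipid peroxidation product 4-hydroxynonenal, read 2.77, 1.22 and 1.10 in wild-type, 10.2, 5.21 and 6.15 in Ctr1-null and 8.81, 5.72 and 11.5 CPM in treated libraries. Every null library, treated or not, exceeded every wild-type library, and the treated and untreated null libraries overlapped. Its log2 fold change was 2.08 ± 0.41 (adjusted p = 0.0927) in Ctr1-null against wild type, 0.27 ± 0.38 (adjusted p = 0.787; 95% interval -0.58 to 1.13) with BCS against without, and 2.35 ± 0.41 (adjusted p = 0.00952) in treated against wild type. The last held under all 9 left-out libraries, with a largest adjusted p of 0.0478, and the first reached 2.63 ± 0.39 (adjusted p = 0.00329) without wild-type replicate 1. Gsta4 lies at chr9:78182774-78209349 on the plus strand, and its longest transcript shares no 31-base stretch with another gene.

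Gstt1, the theta-class enzyme, read 6.76, 3.65 and 3.23 in wild-type, 4.56, 9.92 and 13.4 in Ctr1-null and 13.5, 12.2 and 22.9 CPM in treated libraries. All treated libraries lay above all wild-type libraries, whereas Ctr1-null replicate 1 lay among wild type. This gave a log2 fold change of 1.83 ± 0.42 (adjusted p = 0.0219) in treated against wild type, 1.03 ± 0.42 (adjusted p = 0.252) in Ctr1-null against wild type and 0.80 ± 0.41 (adjusted p = 0.399) with BCS against without. Gstm1, a mu-class enzyme, read 40.3, 47.8 and 48.6 CPM, then 52.4, 68.5 and 58.3 CPM, then 73.5, 57.2 and 77.2 CPM. Each null library exceeded each wild-type library. The fitted log2 fold change was 0.61 ± 0.14 (adjusted p = 0.0206) in treated and 0.39 ± 0.14 (adjusted p = 0.203) in Ctr1-null against wild type. In its longest transcript 34.3% of the 31-base stretches occur in other genes, mostly a Gstm2 pseudogene, so how reads were divided between them is uncertain. The calls of Gstt1 and Gstm1 were each lost under 4 of the 9 left-out libraries.

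Mgst1, a membrane-bound transferase with peroxidase activity, turned on 1 library. It read 13.0, 2.11 and 1.77 in wild-type, 15.8, 17.1 and 25.3 in Ctr1-null and 21.5, 17.5 and 28.1 CPM in treated libraries. Wild-type replicate 1 lay just under the null libraries and the other 2 wild-type libraries far under them. On the log2 scale the difference was 1.78 ± 0.64 (adjusted p = 0.208) in Ctr1-null and 1.99 ± 0.64 (adjusted p = 0.0623) in treated against wild type. Without wild-type replicate 1 these were 3.33 ± 0.29 (adjusted p = 0.000584) and 3.53 ± 0.29 (adjusted p = 0.000324). Gstm2 read 4.85, 14.3 and 13.0 CPM, then 6.74, 14.0 and 6.53 CPM, then 13.4, 11.8 and 15 CPM. Low values came from the first wild-type library and from the first and the third Ctr1-null library, and the groups overlapped throughout. In treated against wild type Mgst3 had a log2 fold change of 0.43 ± 0.15 (adjusted p = 0.0848), and Gstm5 and Gstp1 had 0.09 ± 0.11 and -0.01 ± 0.09, with 95% intervals of -0.15 to 0.34 and -0.22 to 0.20. For Gstp1, 67.5% of the 31-base stretches occur in other genes, chiefly Gstp2.

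**Figure D4:**
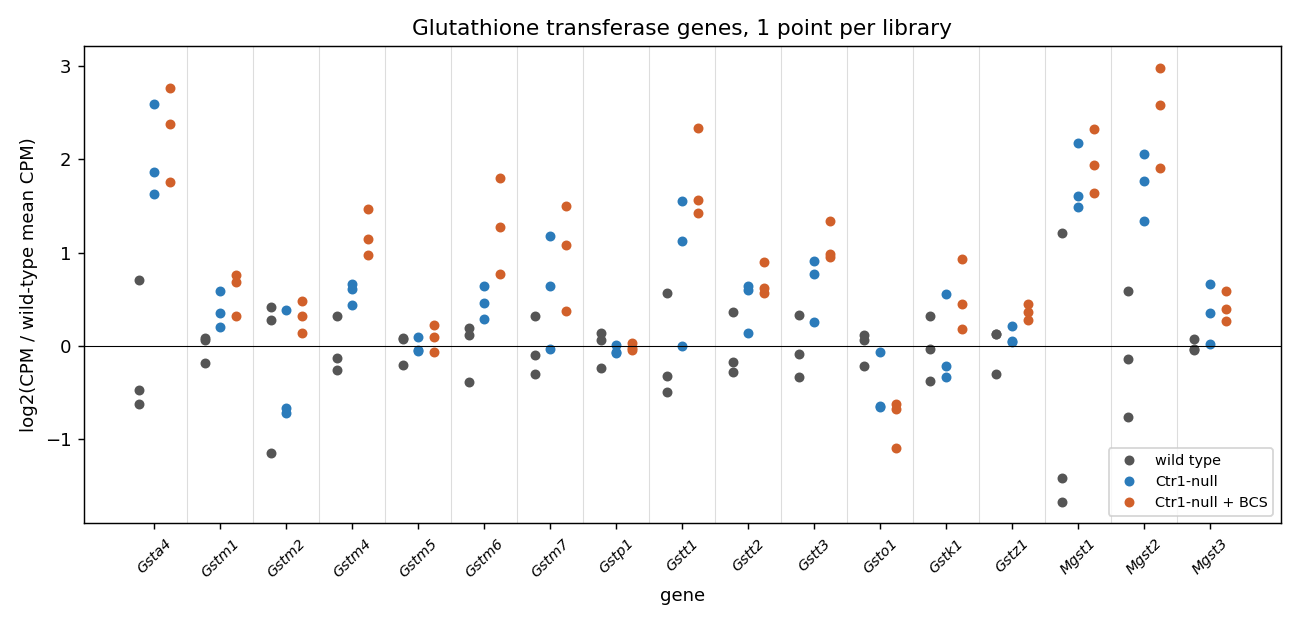
Log2 ratio of the CPM in each library to the wild-type mean for 17 glutathione transferase genes, 8 of the 37 genes and 9 further ones, with 1 point per library coloured by group. The points of Gsta4, Mgst1 and Mgst2 in null cells lie well above 0, while those of Gstp1 and Gstm5 lie near 0 and those of Gsto1 below it.

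Of the 5 glutathione peroxidase genes 1 rose in treated against wild-type cells (8.56% of all genes rose), and 0 of 5 passed in the other comparisons with all libraries. When wild-type replicate 1 was left out, Gpx3 and Gpx7 were called higher in treated against wild type, where 15.7% of all genes were, and Gpx4 lower, where 15.3% were. Gpx3 read 1.81, 0.676 and 0.781 in wild-type, 1.57, 3.43 and 5.66 in Ctr1-null and 5.21, 4.81 and 8.76 CPM in treated libraries. The treated libraries were above all wild-type libraries, and Ctr1-null replicate 1 lay within wild type. The test gave a log2 fold change of 2.51 ± 0.51 (adjusted p = 0.0154) in treated against wild type, 1.69 ± 0.51 (adjusted p = 0.155) in Ctr1-null against wild type and 0.82 ± 0.48 (adjusted p = 0.459) with BCS against without. The call was lost without the second or the third wild-type library or treated replicate 3, where the adjusted p reached 0.0718. In Ctr1-null against wild type it was 2.27 ± 0.53 (adjusted p = 0.0212) without wild-type replicate 1. Gpx3 lies at chr11:54902453-54910377 on the plus strand.

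Gpx7, a peroxidase of the endoplasmic reticulum, read 14.8, 5.81 and 5.97 in wild-type, 10.7, 14.0 and 19.1 in Ctr1-null and 15, 12.7 and 19.3 CPM in treated libraries. Wild-type replicate 1 sat inside the null range and the other 2 wild-type libraries under it. The estimated log2 fold change was 0.82 ± 0.36 (adjusted p = 0.147) in treated against wild type with all libraries, and 1.40 ± 0.25 (adjusted p = 0.00425) without wild-type replicate 1. In Ctr1-null against wild type these were 0.72 ± 0.36 (adjusted p = 0.330) and 1.30 ± 0.25 (adjusted p = 0.00967). In treated against wild type Gpx1, the abundant cytosolic enzyme, had a log2 fold change of 0.01 ± 0.07, with a 95% interval of -0.16 to 0.17. Gpx4, which reduces lipid peroxides in membranes, had -0.16 ± 0.12 (adjusted p = 0.370), or -0.30 ± 0.08 (adjusted p = 0.0193) without wild-type replicate 1, and Gpx8, also of the endoplasmic reticulum, -0.27 ± 0.09 (adjusted p = 0.0736). In the Gpx4 transcript 66.8% of the 31-base stretches occur in other genes, mostly a pseudogene copy of it.

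The summed level of fat-cell markers lay higher in every null than in every wild-type library, as did Gsta4, Gstm1, Mgst1 and Cat. Of all genes tested, 9.49% lay above wild type in every Ctr1-null library and 20.0% in every treated library. Gpx3 and Gstt1 lay higher in every treated library, but in Ctr1-null replicate 1 both lay within wild type. The summed level of the 6 fat-cell markers was 24.4 to 30.3 CPM in wild type, 58.7 to 85.5 CPM in Ctr1-null and 67.3 to 81.7 CPM in treated libraries. Pparg, Cebpa, Fabp4 and Lpl made up nearly all of that sum, and Adipoq and Plin1, which define mature fat cells, stayed under 1 CPM in every library. Lpl overlapped between groups, at 2.81 CPM in wild-type replicate 1 and 1.51 and 2.27 CPM in Ctr1-null replicates 1 and 2. Macrophage and blood markers summed to 5.62 to 12.5 CPM, 9.38 to 17.6 CPM and 12.5 to 22.1 CPM in the same order, with Adgre1 at 0 and Ptprc and Lyz2 under 1 CPM in all libraries. Most of that sum was Cd68, at 5.24 to 20.7 CPM over all libraries. Muscle markers summed to 0.784 to 1.16 CPM, 1.71 to 4.34 CPM and 3.43 to 8.62 CPM. Most of that sum was the single gene Des, at 0.568 to 8.31 CPM over all libraries, with Myod1 at 0 and Myog, Myh3 and Tnnt2 under 1 CPM in every library. Epithelial markers summed to at most 9.76 CPM, with Epcam and Cdh1 under 1 CPM throughout, and endothelial markers to 23.7 to 38.0 CPM over all libraries. The part of these markers in the results was not tested, and in bulk libraries fewer cells of a type and less RNA per cell cannot be told apart.

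Catalase, which splits hydrogen peroxide in peroxisomes, rose in treated against wild-type cells. Cat read 52.2, 58.4 and 57.5 in wild-type, 60, 70.1 and 67.1 in Ctr1-null and 72.2, 64.0 and 73.6 CPM in treated libraries. Every null library exceeded every wild-type library by a small step. Its log2 fold change was 0.32 ± 0.09 (adjusted p = 0.0379) in treated and 0.23 ± 0.09 (adjusted p = 0.231) in Ctr1-null against wild type. The call was lost under 7 of the 9 left-out libraries, with an adjusted p of up to 0.140, with the authors' factors and with no filter. It was 0.26 ± 0.09 (adjusted p = 0.0519) without wild-type replicate 1.

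Sod2, the manganese superoxide dismutase of mitochondria, read 35.5, 45.4 and 44.0 in wild-type, 34.8, 33.4 and 34.3 in Ctr1-null and 34.9, 35.4 and 31.8 CPM in treated libraries. All 6 null libraries lay under all 3 wild-type libraries, although wild-type replicate 1 was close to them. This gave a log2 fold change of -0.28 ± 0.10 (adjusted p = 0.199) in Ctr1-null and -0.29 ± 0.10 (adjusted p = 0.0748) in treated against wild type. Without wild-type replicate 1 both passed, at -0.39 ± 0.07 (adjusted p = 0.00932) and -0.40 ± 0.07 (adjusted p = 0.00484).

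Of the 4 genes of the pentose phosphate pathway, which supplies NADPH for both thiol systems, 1 fell in treated against wild-type cells (7.28% of all genes fell). G6pdx, glucose-6-phosphate dehydrogenase, the entry step, read 63.5, 88.1 and 88.2 in wild-type, 79.5, 66.1 and 64.9 in Ctr1-null and 58.0, 56.8 and 47.1 CPM in treated libraries. The treated libraries lay under all other libraries, and the wild-type and Ctr1-null libraries overlapped. The fitted log2 fold change was -0.57 ± 0.14 (adjusted p = 0.0295) in treated against wild type and -0.38 ± 0.14 (adjusted p = 0.273) with BCS against without. Without Ctr1-null replicate 1 the latter was -0.28 ± 0.15 (adjusted p = 0.572). The call was lost under 5 of the 9 left-out libraries, where the adjusted p reached 0.117. G6pdx lies at chrX:74409483-74429194 on the minus strand, 13.6% of its exon bases are shared with Ikbkg, and 14.8% of its 31-base stretches occur in other genes, mainly G6pd2.

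The remaining pathway genes did not pass with all libraries. In treated against wild type Tkt, transketolase, had a log2 fold change of -0.29 ± 0.10 (adjusted p = 0.0858), or -0.40 ± 0.08 (adjusted p = 0.00707) without wild-type replicate 1, and Pgd, the NADPH-forming 6-phosphogluconate dehydrogenase, had -0.05 ± 0.10 with a 95% interval of -0.28 to 0.18. Taldo1, transaldolase, had -0.05 ± 0.09 with an interval of -0.24 to 0.14. Abcc1, which exports glutathione conjugates, had -0.23 ± 0.09 (adjusted p = 0.101), with each treated library under each wild-type library.

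One untreated library carried the highest values of many of these genes. Ctr1-null replicate 1 was the highest of the 9 libraries for 11 of the 37 genes (29.7%), against 11.9% of all genes tested, and the lowest for 0, against 15.2% of all genes. The 11 were Nqo1, Gclc, Gsr, Txnrd1, Srxn1, Prdx1, Prdx6, Gpx1, Pgd, Taldo1 and Abcc1. The median over the 3 thioredoxin genes of the log2 ratio to the wild-type mean was 0.52 in that library and -0.09 and -0.17 in the other Ctr1-null libraries. For the 8 transferase genes the order was the opposite, at 0.06 in that library and 0.49 and 0.51 in the others. Treated replicate 3 was the highest library for 11 genes (29.7%, against 20.8% of all genes) and the lowest for 10 (27.0%, against 18.5%).

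**Figure D5:**
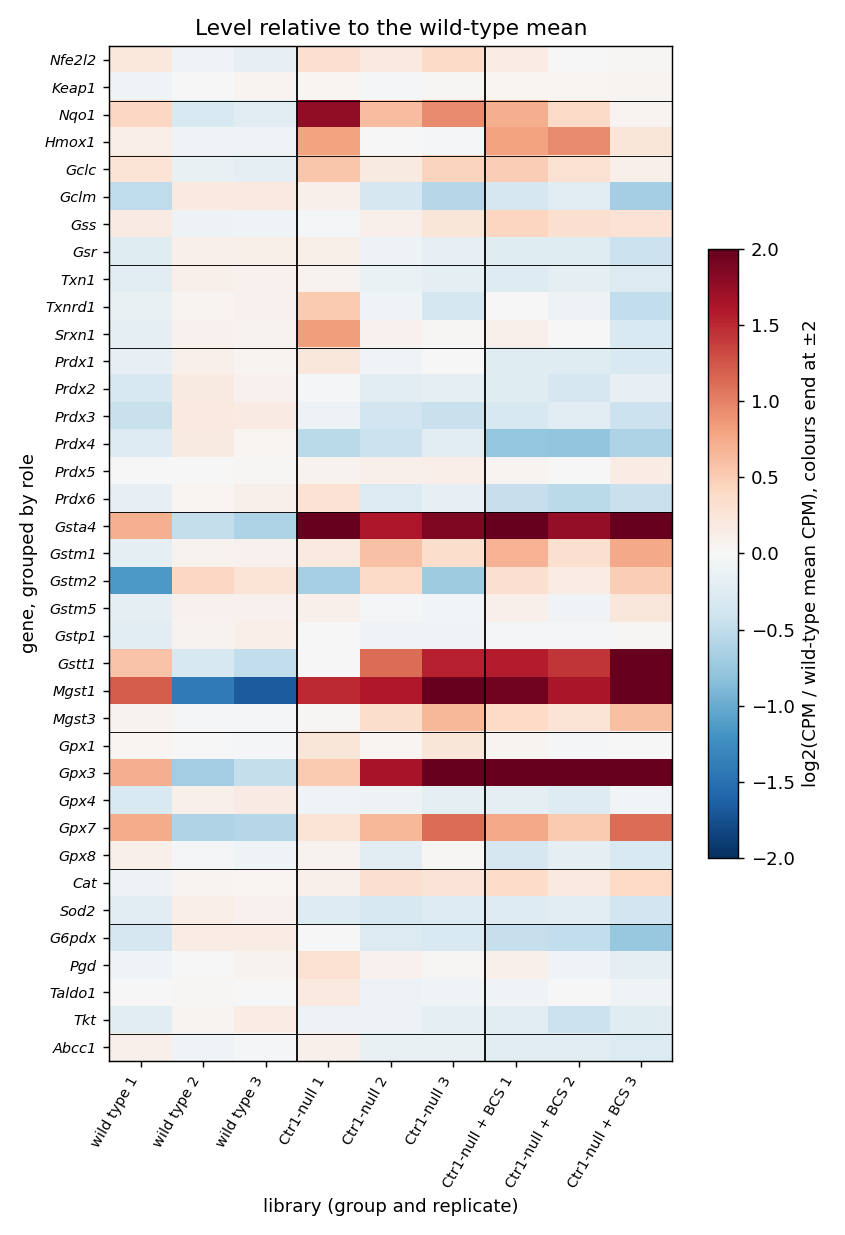
Log2 ratio of the CPM in each library to the wild-type mean, with 1 row per gene grouped by role and 1 column per library; red is higher and blue is lower, and colours end at 2 in either direction. The column of Ctr1-null replicate 1 is red from Nqo1 to Srxn1 except at Gss, and Gsta4, Mgst1 and Gpx3 are red in most null columns.

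A further 66 genes of the same pathways were read from the same test, and 64 passed the filter. In Ctr1-null against wild type 0 of 64 passed in edgeR's test. An unadjusted p under 0.05 was reached by 15, 10 higher and 5 lower, against 17.6% of all genes. Of the 18408 genes tested, 1671 were higher and 1568 lower at that threshold. DESeq2 called 12, where it called 7.48% of the genes it gave an adjusted p, and limma-voom called 0. Leaving out wild-type replicate 1 gave 20 (31.2%), against 17.3% of all genes, 12 higher (9.22% of all genes) and 8 lower (8.05%). The smallest p-values among higher genes belonged to Mgst2, a microsomal transferase (log2 fold change 1.73 ± 0.38, adjusted p = 0.0992), Bach2, a repressor that binds MAF sites (0.52 ± 0.12, adjusted p = 0.102), and Cbr3, a carbonyl reductase (0.94 ± 0.22, adjusted p = 0.109). Among lower genes they belonged to Txnip, the inhibitor of thioredoxin (-0.89 ± 0.20, adjusted p = 0.0992), Slc3a2, the heavy chain of the cystine transporter (-0.38 ± 0.11, adjusted p = 0.141), and Glrx3, a glutaredoxin (-0.22 ± 0.07, adjusted p = 0.164).

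With BCS against without, 1 of the 64 genes (1.56%) passed, against 0.0543% of all genes. Sesn2, a stress-induced sestrin, read 45.2, 47.5 and 45.5 in wild-type, 36.4, 41.1 and 40.3 in Ctr1-null and 59.8, 61.9 and 64.2 CPM in treated libraries. The 3 groups did not overlap, and the treated one was the highest. It rose by 0.66 ± 0.07 on the log2 scale (adjusted p = 0.0161), and leaving out a library raised the adjusted p to as much as 0.111, with the call lost in 7 of 9 cases. The smallest p-values among lower genes were those of Sod3, the extracellular superoxide dismutase (-0.71 ± 0.19, adjusted p = 0.164, or -0.72 ± 0.11, adjusted p = 0.0334, without wild-type replicate 1), Bach2 (-0.32 ± 0.12, adjusted p = 0.257) and Ggct, which acts in glutathione breakdown (-0.37 ± 0.17, adjusted p = 0.345).

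Between treated and wild-type cells 13 of the 64 genes (20.3%) passed, against 15.8% of all genes, 10 higher (8.56% of all genes) and 3 lower (7.28%). Of these 13, 6 were of the 19 tested glutathione genes, 4 of the 17 other NRF2 targets, 2 of the 10 thioredoxin genes, 1 of the 9 superoxide and NADPH genes and 0 of the 9 NRF2 partners. The largest rises were those of Ggt5, which cleaves glutathione outside the cell (2.70 ± 0.64, adjusted p = 0.0234), Mgst2 (2.53 ± 0.38, adjusted p = 0.00651), Slc7a11, the cystine importer (1.75 ± 0.32, adjusted p = 0.0109), and Gstm6 (1.31 ± 0.33, adjusted p = 0.0285). Ggt5 and Gstm6 were low, at 0.0991 to 2.33 CPM (5 to 117 counts) and 0.162 to 0.737 CPM (6 to 37 counts) over all libraries. Their calls were each lost under 4 of the 9 left-out libraries, that of Slc7a11 under 2 and that of Mgst2 under 0. Slc7a11 read 7.13, 6.11 and 6.15 in wild-type, 23.1, 10.4 and 10.1 in Ctr1-null and 24.8, 15.6 and 25.1 CPM in treated libraries, so every null library exceeded every wild-type one. The 3 genes that fell were Txnip (-0.93 ± 0.20, adjusted p = 0.0168), Sod3 (-0.87 ± 0.19, adjusted p = 0.0181) and Gsto1, an omega-class transferase (-0.78 ± 0.18, adjusted p = 0.0222). Gsto1 fell while Gsta4, Gstt1, Gstm1, Gstm4, Gstm6, Gstt3 and Mgst2 rose. Leaving out wild-type replicate 1 raised the count from 13 to 24 of 64 (37.5%), 17 higher (15.7% of all genes) and 7 lower (15.3%). For Gstt3 and Gstm6, 27.0% and 17.2% of the 31-base stretches occur in other genes.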

How the data were processed

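Total RNA of the fibroblasts was sequenced as 9 TruSeq RNA libraries, per the labels' protocols. The deposited expected counts per gene are estimated counts that the authors had rounded to whole numbers; the file name in the labels points to Salmon. Tools listed without version or role in the submitters' processing notes are FastQC, STAR, Salmon and DESeq2, with the build GRCm38. A second deposited table of scaled signal holds those counts divided by a factor for each gene and library that is not stated; the factors were recovered from it and used in 1 alternative only.

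Of the rows, 52566 of 52661 matched a symbol by Ensembl ID. Genes were kept with edgeR 4.0.16 filterByExpr (minimum count 10, minimum total 15), scaled by TMM and tested with quasi-likelihood over 9 libraries and 3 groups in R 4.3.3, with Benjamini-Hochberg adjustment over 18408 genes and a threshold of 0.05. SE is the log2 fold change over the root of F. Alternatives used DESeq2 1.42.0, limma 3.58.1, other scalings, filters and left-out libraries. The testing script was tested on simulated data. Members and gene lists were chosen with earlier results of these data known. Values in every library are given for Nfe2l2, Keap1, Nqo1, Hmox1, called genes and the 5 largest and 5 smallest fold changes in each comparison; of the further genes, up to 4 called in each direction by size are named, or the 3 smallest p-values where none was called. Nnt was left out because 2 overlapping gene models carry its symbol. Read sharing was measured with 31-base stretches of GENCODE transcripts.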

Additional observations from a re-analysis of the deposited data

How the results depend on the processing

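Of 2109 recomputed fold changes of the 37 genes, 0 reversed a called direction, 45 lost the call and 44 gained one. Another 1985 kept their side of the threshold, and those not called moved by at most 1 SE, whatever their sign. The remaining 35 stayed uncalled and moved by more than 1 SE. In Ctr1-null against wild type, where 0 genes were called, no filter gave 2 and DESeq2 gave 3, where 0.759% and 7.48% of all genes with an adjusted p were called. Leaving out a library gave 0 to 11, where 0.00529% to 17.3% of all genes passed. For the further genes, 0 with all libraries, the counts in the same order were 4, 12 and 0 to 20. With BCS against without, DESeq2 gave 1 of the 37 genes in place of 0, and of the further genes 5 in place of 1, where it called 5.04% of all genes with an adjusted p. The range for the further genes under left-out libraries was 0 to 2, where 0% to 0.972% of all genes passed. In treated against wild type, DESeq2 gave 14 in place of 9, while over all genes with an adjusted p its share called was 23.6% against 15.8%. Left-out libraries gave 2 to 20, or 4 to 24 in place of 13 for the further genes, where 3.01% to 31% of all genes passed. The authors' factors called 6 of the 9, without Gss, Prdx6 and Cat, where 12.6% of all genes passed. The causes were not tested. Scaling by library size only moved the median of all genes in treated against wild type to 0.11 and the share of higher calls from 54.0% to 72.5%. It called 9 of the 37 genes, 7 higher and 2 lower, where 15.5% of all genes passed. With the replicate number as a replicate block, 4 genes (Prdx4, Gsta4, Gstm1 and Gpx3) passed in treated against wild type in place of 9, where 8.38% of all genes passed. With BCS against without, 0 of the further genes passed in place of 1, where 0.0109% of all genes passed. The labels do not say whether the numbers pair the libraries. Same-numbered deviations correlated at -0.48 to 0.43 and unlike-numbered ones at -0.45 to 0.56. Deviations within a group of 3 are tied to one another, so these values cannot decide it. With 3 libraries a group, the SE of a log2 fold change against wild type was largest for Mgst1, at 0.64, followed by Gpx3, at 0.51.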
